A study of Rattus norvegicus with 50 samples.

Results

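Proteasome subunit genes were followed in the livers of 50 female Brown Norway rats on rat expression arrays. The members are all gene symbols of the array's probe table that begin with Psma, Psmb, Psmc or Psmd followed by a digit, apart from the immunoproteasome genes Psmb8 and Psmb9, which gave 35 of 14217 genes. One of these, Psmc3ip, encodes a meiotic recombination protein that is named for binding Psmc3 and is no part of the proteasome. It was not called in any of the comparisons and is left out of the counts below, which run over 34 genes. These are 7 of the alpha ring, 7 of the beta ring, 6 ATPases and 11 other subunits of the regulatory cap, and 3 cap assembly chaperones with a Psmd symbol. The catalytic subunit gene Psmb6 is not among them, because its probe set carries more than 1 symbol.

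The rats were of the Bn/Crl strain with the RT1n haplotype and 9 to 11 weeks old, and fell into 17 groups of 3, or 2 for galactosamine at 48 h. Vehicle rats received sham doses by mouth and by injection and were taken at 3 h, 24 h, 48 h, 8 d and 15 d. Galactosamine rats received sham oral doses and 1 intraperitoneal injection of 750 mg/kg, and were taken 3 h, 24 h, 48 h and 8 d later. Galactosamine is an amino sugar that depletes uridine nucleotides in hepatocytes and so blocks their RNA synthesis. Nevirapine rats received the antiretroviral drug nevirapine by mouth with a sham injection and were taken 3 h, 24 h, 48 h or 15 d after the first dose, that is, after 1, 2, 3 or 16 doses. Combination rats received nevirapine for 7 d, then galactosamine at 750 mg/kg with nevirapine continued, and were taken 3 h, 24 h, 48 h and 8 d after the injection, after 8, 9, 10 and 16 oral doses. Nevirapine began at 150 mg/kg. In the combination rats and the nevirapine rats of 15 d it went to 100 mg/kg for 2 days and, after a drug-free day, to 75 mg/kg. The dose counts above take no account of that day. For the nevirapine rats of 24 h and 48 h only the first dose level is listed here. Livers came 2 h after the last oral dose, except that the 3 h groups came 5 h after it and nevirapine at 3 h came 3 h after its only dose. At 24 h and 48 h the nevirapine rats had therefore had a few doses, while the combination rats had had more than a week of them. The groups follow the livers up to the time at which the combination, and neither drug alone, had led to fibrosis.

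The proteasome is the large protease that degrades proteins marked with ubiquitin. Its core, called 20S, is a barrel of stacked rings, with alpha subunits forming the outer rings and the gate, and beta subunits forming the inner rings that hold the proteolytic sites. The cap, called 19S, binds ubiquitin chains, removes them, and unfolds and feeds in the substrate with a ring of ATPases. In mammalian cells the subunit genes are known to be raised together when proteasome activity falls short, mainly through the transcription factor Nfe2l1 (NRF1), and the related factor Nfe2l2 (NRF2) raises some of them in oxidative stress. Both bind antioxidant response elements. Interferon-gamma raises Psmb8, Psmb9 and Psmb10, which replace the standard catalytic subunits in the immunoproteasome.

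Because the subunit genes move together in part of the comparisons, their promoters are shown before the values. RefSeq windows on GRCr8, from 250 bases before to 50 bases after the start of each gene, were found for 30 of the 34 genes. They were searched on both strands for the core of the antioxidant response element, TGACNNNGC, and for the NF-Y box, CCAAT. The core was present in 6 of the 30 windows (20%) and in 12.1% of all 33469 RefSeq windows. That is a wider set than the 14217 array genes, so it is no matched background. The NF-Y box was present in 16 of the 30 (53.3%) and in 37.5% of the same RefSeq windows. The stretches below end at the base before the start and show a core (Psmb2, Psmb5, Psmd9) or paired NF-Y boxes (Psma5, Psmb3), with both motifs in capitals. In Psmb2 the NF-Y box and the core share the base T, and Psmd9 carries 1 core and its NF-Y box in reverse orientation.
Psma5, chr2:198584405-198584504, plus strand: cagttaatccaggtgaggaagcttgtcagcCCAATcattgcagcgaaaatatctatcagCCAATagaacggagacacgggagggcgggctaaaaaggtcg
Psmb2, chr5:144254958-144255057, plus strand: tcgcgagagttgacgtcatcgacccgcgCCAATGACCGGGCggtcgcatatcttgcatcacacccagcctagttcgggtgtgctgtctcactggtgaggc
Psmb3, chr10:83193687-83193786, plus strand: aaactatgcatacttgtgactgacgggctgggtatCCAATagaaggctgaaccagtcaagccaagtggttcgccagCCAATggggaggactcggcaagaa
Psmb5, chr15:32047380-32047479, minus strand: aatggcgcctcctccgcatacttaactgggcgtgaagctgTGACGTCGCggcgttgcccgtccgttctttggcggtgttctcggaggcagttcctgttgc
Psmd9, chr12:39018265-39018394, minus strand: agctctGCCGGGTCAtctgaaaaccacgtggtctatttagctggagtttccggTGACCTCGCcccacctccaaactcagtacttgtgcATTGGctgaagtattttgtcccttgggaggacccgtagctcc

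Values are log2 probe set signals, so 1 unit is a doubling. Each comparison is the difference of 2 group means with the standard error of a limma fit to all 50 arrays, and a gene was called at an adjusted p under 0.05 over 14217 genes. The number of arrays limits the precision, and nothing in the labels says how rats were housed or processed together. The 34 genes averaged between 7.81 and 11.56, above 4.37, the highest mean of 27 probe sets for bacterial control genes. Hepatocyte markers such as Alb were bright in every group, with a summed signal of log2 16.06 to 16.32 over 8 genes, as the tissue label says. Array medians ran from 4.954 to 5.093, but the scaling of the deposited values brings them together, so they are no check of array quality. The difference between the 3′ and 5′ GAPDH control probe sets, which widens as RNA degrades, ran from 0.03 to 0.12 in the vehicle rats of 8 d and 15 d, from 0.19 to 0.67 in those of 3 h and 24 h, and from 0.48 to 0.74 in those of 48 h. In whole liver, fewer cells of a type and less RNA per cell cannot be told apart.

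To place each rat, the difference of every gene from its mean over the 15 vehicle rats was taken, and then the median over the 34 genes. The vehicle groups were not level: rats of 48 h stood at -0.42, -0.34 and -0.38, while the other 12 vehicle rats lay between -0.14 and 0.29. All 3 rats of nevirapine at 24 h (0.61, 0.47 and 0.43) and of the combination at 24 h (0.64, 0.42 and 0.51) stood above every vehicle rat. Galactosamine rats at 24 h (0.16, 0.03 and 0.29) overlapped the vehicle rats. At 48 h the nevirapine rats stood at 0.17, 0.34 and 0.34 and the combination rats at 0.68, 0.27 and 0.10, while galactosamine rats stood at -0.07 and 0.02. The late groups, nevirapine at 15 d (0.27 to 0.43) and the combination at 8 d (0.28 to 0.41), lay around and above the highest vehicle rat, at 0.29.

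**Figure D1:**
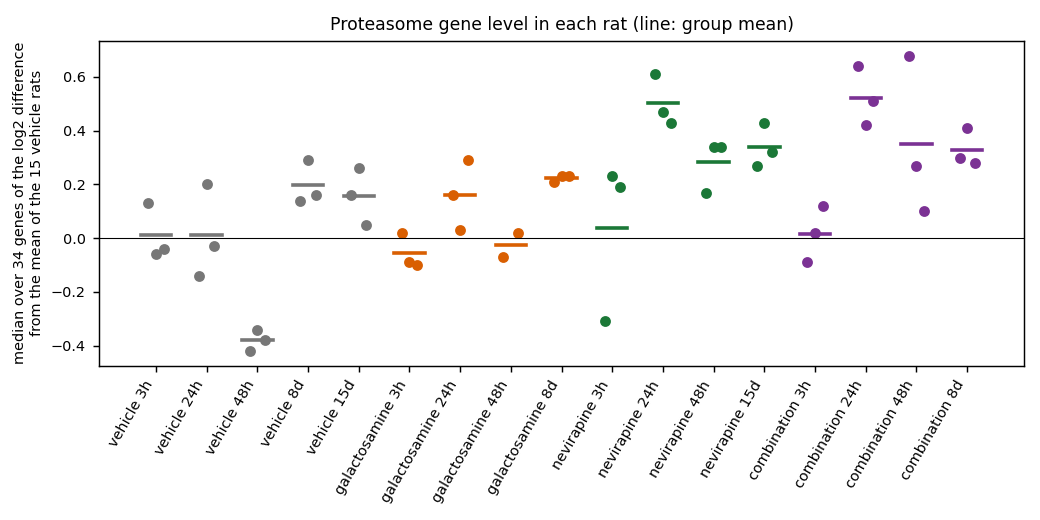
Median over the 34 proteasome genes of the log2 difference from the mean of the 15 vehicle rats (vertical axis) for each rat (points) in the 17 groups (horizontal axis), with the group mean as a line. The 48 h vehicle rats lie between -0.42 and -0.34, below every other rat, and the 24 h rats given nevirapine alone or with galactosamine lie between 0.42 and 0.64.

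The spread among vehicle groups bears on every comparison at 48 h. In a moderated F test over the 5 vehicle times, 26 of the 34 genes differed, beside 29.6% of all genes. Psmd14, the deubiquitinase of the cap, read 8.37, 8.56 and 8.32 in the 48 h vehicle rats and between 9.08 and 9.91 in the other vehicle rats, so that the groups did not overlap. The ATPase gene Psmc6 read 9.37, 9.21 and 9.28 at 48 h and 9.71 to 10.39 at the other times. Among the 4 other vehicle groups 3 of the 34 genes differed, in a test chosen after seeing the data, beside 22.7% of all genes. With the GAPDH difference as a covariate, 14 of the 34 differed over the 5 times, beside 19.9% of all genes. The part of RNA quality in the low values of the 48 h vehicle rats was otherwise not tested.

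After 24 h of nevirapine, 24 of the 34 genes rose and none fell, beside 4.55% of all genes higher and 6.63% lower. The median change was 0.46 over the 34 genes and -0.01 over all genes. For 29 of the 34 every nevirapine rat stood above every vehicle rat, beside 12.4% of all genes. Without the dimmest 40% of genes 25 rose, beside 19.3% of the genes kept that were called in either direction. Every one of the 11 other cap subunits rose, as did 5 of 7 alpha subunits, 4 of 7 beta subunits, 3 of 6 ATPases and 1 of the 3 chaperones. The largest changes were close to 1.73-fold. Without rat4, a vehicle rat, 10 genes were called, beside 6.5% of all genes. Without rat37, a nevirapine rat, 15 were called, beside 8.07%. Of the 24 genes 10 kept their rise and their call in each of the 15 other settings tried, leaving out single rats included: Psma4, Psma5, Psma7, Psmb2, Psmb3, Psmc4, Psmc5, Psmd7, Psmd11 and Psmd14. Psmd13 kept its call in 8 of the 15, and Psmb5 and Psmc1 in 9.

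In the alpha ring, Psma5 read 9.79, 10.24 and 9.95 in vehicle rats and 10.73, 10.67 and 10.68 in nevirapine rats at 24 h. Each nevirapine rat thus stood above each vehicle rat, and the change was 0.70 ± 0.12 (adjusted p = 0.000134). Psma7 (0.62 ± 0.13), Psma1 (0.54 ± 0.14), Psma4 (0.54 ± 0.13) and Psma2 (0.52 ± 0.14) rose too. The change of Psma3 was 0.46 ± 0.20 (adjusted p not under the threshold) and that of Psma6 was the least in the ring, 0.23 ± 0.11.

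In the beta ring, Psmb3, a structural subunit without a proteolytic site, read 10.16, 10.65 and 10.21 in vehicle rats and 11.09, 11.19 and 11.11 in nevirapine rats at 24 h. Its change, 0.79 ± 0.16 (1.73-fold, adjusted p = 0.000581), was the largest in the ring, and the groups did not overlap. Psmb5, which carries the chymotrypsin-like site and is the main target of bortezomib, rose by 0.39 ± 0.12, from 10.78, 11.13 and 10.91 to 11.36, 11.41 and 11.23. Psmb2 (0.53 ± 0.13) and Psmb4 (0.43 ± 0.13) rose as well. Psmb7, which carries the trypsin-like site, had a change of 0.35 ± 0.17 and Psmb1 one of 0.24 ± 0.10, and neither was called. Psmb10, the immunoproteasome counterpart of Psmb7, had the least change in the ring, 0.07 ± 0.26.

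Among the ATPases that unfold substrates, Psmc4 read 9.86, 10.19 and 10.14 in vehicle rats and 10.98, 10.78 and 10.76 in nevirapine rats at 24 h, without overlap. Its change was 0.77 ± 0.15 (1.71-fold, adjusted p = 0.000632). Psmc5 rose by 0.61 ± 0.12 and Psmc1 by 0.38 ± 0.12. Psmc3 (0.36 ± 0.13), Psmc2 (0.33 ± 0.14) and Psmc6 (0.24 ± 0.12) were not called.

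Psmd14, which cuts ubiquitin chains off the substrate, had the largest change of the other cap subunits. It read 9.08, 9.55 and 9.23 in vehicle rats and 10.22, 10.04 and 9.97 in nevirapine rats at 24 h, a change of 0.79 ± 0.19 (1.73-fold, adjusted p = 0.00359). All 3 probe sets of Psmd14 were called at that time. The ubiquitin receptor gene Psmd4 rose by 0.58 ± 0.15, and the scaffold genes Psmd1 and Psmd2 by 0.54 ± 0.13 and 0.45 ± 0.12. Psmd8 rose by 0.66 ± 0.18, Psmd11 by 0.54 ± 0.12, Psmd12 by 0.50 ± 0.16, Psmd7 by 0.46 ± 0.10 and Psmd3 by 0.44 ± 0.14. The least changes were those of Psmd13 (0.41 ± 0.14) and Psmd6 (0.41 ± 0.12), still called. Of the chaperones that help assemble the base of the cap, Psmd5 rose by 0.71 ± 0.18. Psmd9 (0.29 ± 0.12) and Psmd10 (-0.12 ± 0.10), also known as gankyrin, were not called.

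**Figure D2:**
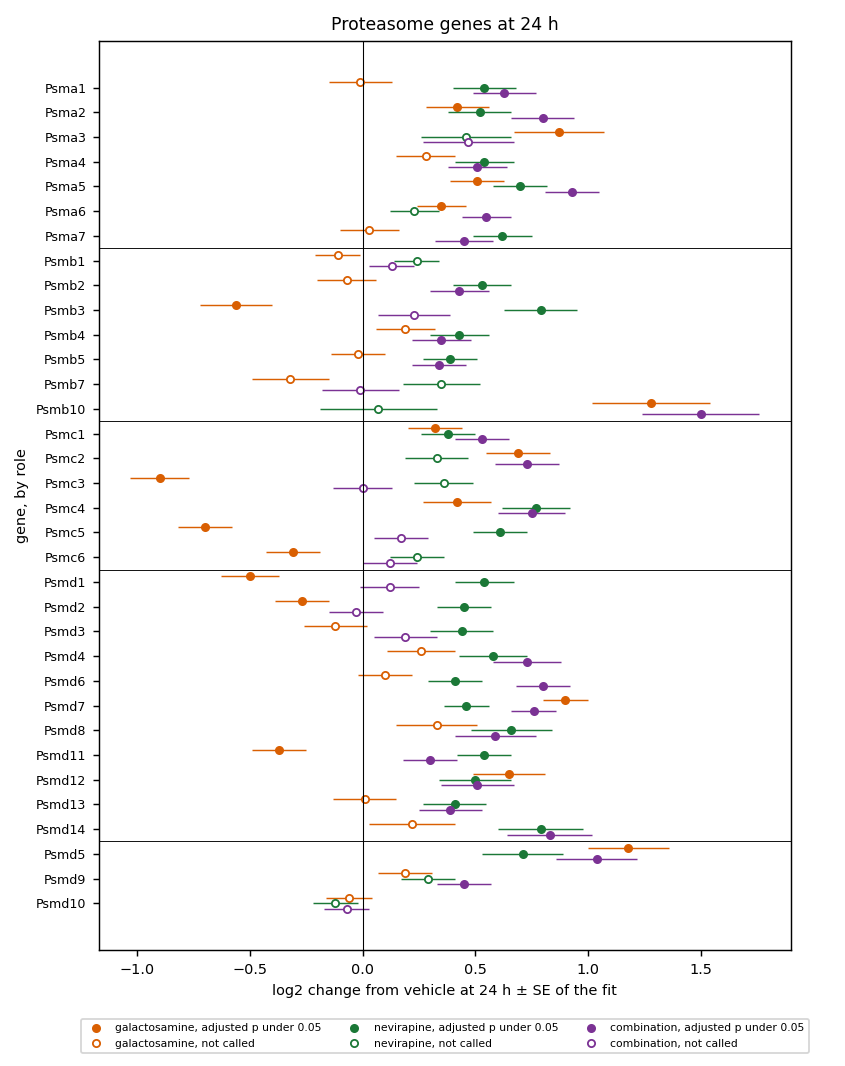
Log2 change from the 24 h vehicle rats (horizontal axis) of each of the 34 genes, ordered by role (vertical axis), for galactosamine, nevirapine and the combination, with the standard error of the fit as bars and filled points at an adjusted p under 0.05. Nevirapine values lie between -0.12 and 0.79, while galactosamine values run from -0.90 (Psmc3) to 1.28 (Psmb10).

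Genes around the proteasome were taken from lists by function. After 24 h of nevirapine, 7 of 10 ubiquitin shuttle and p97 genes rose and none fell (median 0.41), among them Nploc4 (0.91 ± 0.15) and Ubxn4 (0.89 ± 0.14), partners of the segregase p97, and Vcp (0.37 ± 0.11), which encodes p97 itself. Of 9 other proteins bound to the proteasome 3 rose: Usp14 (1.02 ± 0.20), a deubiquitinase of the cap, Adrm1 (0.64 ± 0.13), a ubiquitin receptor, and Ecpas (0.60 ± 0.11), a scaffold. The activator gene Psme4 rose by 0.66 ± 0.14. Of 5 chaperones of core assembly none was called by limma, with 2 at an unadjusted p under 0.05. Of 7 immunoproteasome and antigen processing genes none was called either, with 1 at an unadjusted p under 0.05.

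Among 13 genes that act on proteasome genes or on their factors, Maff (2.41 ± 0.56), a small MAF partner of NRF1 and NRF2, and Zfand2a (1.99 ± 0.44), an arsenite-inducible proteasome-associated protein, rose. Ddi2, the protease that activates NRF1, fell by 0.61 ± 0.17 on the log2 scale. Nfe2l1 itself changed by 0.35 ± 0.14 (adjusted p = 0.0953) and Nfe2l2 by 0.06 ± 0.18 (adjusted p = 0.89). Of 9 NRF2 target genes 7 rose (median 1.06), with Srxn1 (1.73 ± 0.42), which repairs peroxiredoxins, and Gclm (1.25), a subunit of the first enzyme of glutathione synthesis, the largest. For 8 genes of the cytosolic chaperonin TRiC and 40 of cytosolic ribosomal proteins, none was called, none was at an unadjusted p under 0.05, and the medians were -0.09 and -0.00.

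The promoter stretches shown above can be set beside these changes. At 24 h of nevirapine, the 6 genes with the antioxidant core in the window had changes of 0.29 to 0.54 (median 0.45, 4 called), and the 24 genes with no match had a median of 0.46, with 16 called. The 16 genes with an NF-Y box had a median of 0.46 and the 14 without had 0.45. With an NF-Y box 10 of the 16 were called, and without it 10 of the 14.

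Leukocyte markers moved the other way at this time. Of 4 pan-leukocyte markers 3 fell after 24 h of nevirapine (median -0.84), with a summed signal of log2 7.52 to 7.67 against 8.10 to 8.24 in vehicle rats. Of 8 macrophage markers 3 fell (summed signal 9.67 to 9.89 against 10.34 to 10.45), and hepatocyte markers summed to 16.19 to 16.24 against 16.26 to 16.32. Their part in the proteasome result was not tested. Of the T and NK cell markers 6 of 8, and of the neutrophil markers 4 of 4, averaged below the control level of 4.37 in vehicle rats.

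At 3 h and 24 h of galactosamine the called members went in both directions, as did all genes. At 3 h, 1 rose and 2 fell, beside 14.9% of all genes higher and 18% lower, so that the shares were below the background. Psmd5 read 8.54, 8.36 and 8.22 in vehicle rats and 7.57, 7.39 and 7.33 after 3 h, a fall by 0.94 on the log2 scale, with no overlap. Psmd10 rose by 0.52 ± 0.10, and Psmd2 fell by 0.39. With cyclic loess scaling 1 rose and 5 fell, beside 33.8% of all genes called.

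At 24 h of galactosamine, 11 of the 34 genes rose and 7 fell, beside 30.2% of all genes higher and 28.5% lower, so that the shares were near the background. The alpha ring held 4 of the rises and no fall, and the ATPases were split, with 3 rises and 3 falls. With cyclic loess scaling 18 rose and 4 fell, beside 57.2% of all genes called. With only the 24 h vehicle and galactosamine groups in the fit 11 genes were called, beside 49.1%.

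The rises at 24 h were led by Psmb10 (1.28 ± 0.26) and by Psmd5, which read 8.18, 8.46 and 8.43 in vehicle rats and 9.69, 9.57 and 9.36 in galactosamine rats, a change of 1.18 ± 0.18 (2.27-fold, adjusted p = 4.69e-07). Psmd5 had thus been below its vehicle rats at 3 h and stood above them at 24 h. Psmd7, the inactive partner of Psmd14 in the cap, read 10.00, 9.97 and 10.02 against 8.94, 9.17 and 9.17, a change of 0.90 ± 0.10. Psma3 (0.87 ± 0.20), Psmc2 (0.69 ± 0.14) and Psmd12 (0.65 ± 0.16) followed. Psma3 varied among the galactosamine rats, at 8.66, 9.39 and 8.10. The rises of Psma2, Psmc1 and Psmc4 at this time each lost their call without rat4 of vehicle and without rat22 or rat24 of galactosamine.

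The falls at 24 h were led by 2 ATPases. Psmc3 read 10.00, 10.32 and 10.17 in vehicle rats and 9.21, 9.15 and 9.43 after galactosamine, a fall by 0.90 on the log2 scale (SE 0.13, adjusted p = 1.18e-07). Psmc5 went from 9.59, 9.68 and 9.61 to 8.98, 8.68 and 9.13, a fall by 0.70. The groups did not overlap for either gene, nor for Psmb3, which fell by 0.56 here and had the largest beta ring rise with nevirapine. Psmd1 fell by 0.50, Psmd11 by 0.37, Psmc6 by 0.31 and Psmd2 by 0.27. Without rat23 of galactosamine the last 3 of these were not called. The difference between galactosamine and nevirapine at 24 h was not tested, and the comparisons share their vehicle rats.

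Other lists moved further at 24 h of galactosamine. All 8 TRiC genes (median 0.68) and 35 of 40 ribosomal protein genes (median 0.45) rose, and so did 7 of 9 NRF2 targets, with 1 lower. Nfe2l2 rose by 2.75 ± 0.18. Psme4, which rose with nevirapine, fell by 1.31, and the core assembly chaperone gene Psmg1 fell by 1.25. Pan-leukocyte markers rose in 4 of 4 (summed signal 9.15 to 9.44 against 8.10 to 8.24).

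**Figure D3:**
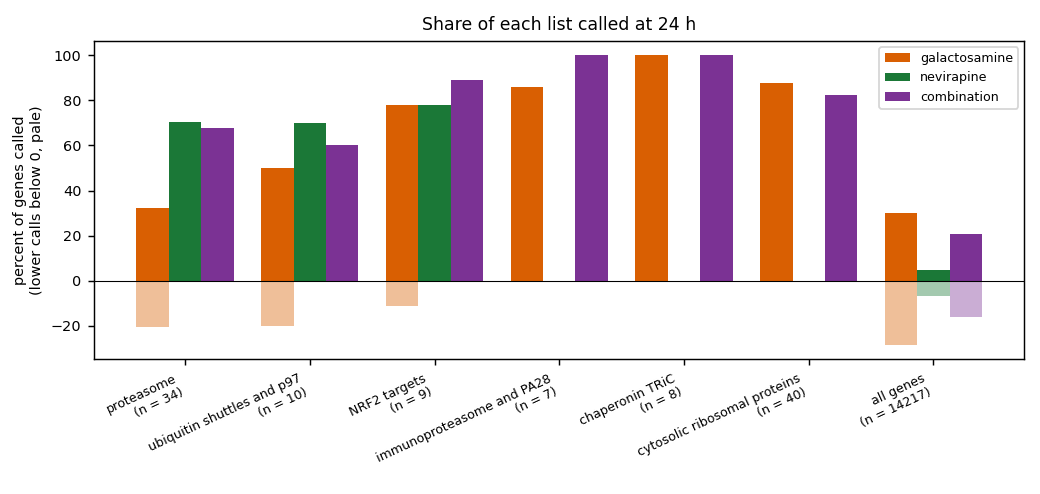
Percent of the genes of each list (horizontal axis, n measured in brackets) called higher (above 0) or lower (below 0, pale) at 24 h against vehicle, for galactosamine, nevirapine and the combination. With nevirapine, calls are seen for the proteasome, shuttle and NRF2 target lists and none for the TRiC, ribosomal and immunoproteasome lists.

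At 24 h of the combination, 23 of the 34 genes rose and none fell, beside 20.7% of all genes higher, with a median of 0.46. Without the dimmest 40% of genes 24 rose, beside 53.7% of the genes kept that were called in either direction. Psma5 read 11.04, 10.86 and 10.88 (change 0.93 ± 0.12) and Psmd14 10.34, 10.04 and 9.96 (change 0.83 ± 0.19), both above all 3 vehicle rats. Psmd5 (1.04 ± 0.18), Psmd6 (0.80 ± 0.12), Psma2 (0.80 ± 0.14) and Psmc4 (0.75 ± 0.15) rose as well. Of the 7 genes that galactosamine alone had lowered, Psmd11 rose with the combination (0.30 ± 0.12, adjusted p = 0.0474). The changes of the others were 0.00 ± 0.13 for Psmc3, 0.17 ± 0.12 for Psmc5, 0.23 ± 0.16 for Psmb3, 0.12 ± 0.12 for Psmc6, 0.12 ± 0.13 for Psmd1 and -0.03 ± 0.12 for Psmd2, none of them called.

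Set directly against galactosamine at 24 h, the combination was higher in 16 of the 34 genes and lower in none, beside 16.2% of all genes higher. The median difference was 0.32, and 0.19 without rat23 of galactosamine. Psmc3 had the largest difference (0.90 ± 0.13, adjusted p = 3.88e-07), with 10.42, 10.08 and 10.01 against 9.21, 9.15 and 9.43. Psmc5 (0.87 ± 0.12), Psmb3 (0.79 ± 0.16), Psmd6 (0.69 ± 0.12) and Psmd11 (0.67 ± 0.12) followed. The other bright probe set of Psmd11 did not share its fall with galactosamine, as given below. With cyclic loess 11 were higher and 1 lower, beside 37.4% of all genes called. Without rat67 of the combination 10 were called, beside 32%. With only the groups compared in the fit 10 were called too, beside 19.3%. At 3 h, 3 genes were higher in the combination than with galactosamine alone (Psmb10, Psmd5 and Psmd9) and none lower, beside 10.6% of all genes higher.

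The 48 h comparisons gave the largest counts and depend on the control. Against the 48 h vehicle rats, 31 of the 34 genes were higher with nevirapine (median 0.61), 32 with the combination (median 0.67) and 17 with galactosamine (median 0.38), with 1 lower, Psmd11. The shares of all genes higher were 11%, 10.2% and 24.9%, with 14.5% lower for galactosamine. Against the 12 vehicle rats of the other times, a control chosen after seeing the data, 4 genes were higher with nevirapine and none lower. For the combination 12 were higher and 1 lower, and for galactosamine 3 were higher and 9 lower. In the same order, 9.09%, 18.9% and 36.7% of all genes were called with this control, so that the shares for nevirapine and galactosamine were near the background. With the 24 h vehicle rats as control, 8, 9 and 6 genes were called for nevirapine, the combination and galactosamine, 5 of the last lower, beside 11.6%, 14.9% and 33.9% of all genes.

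Against the 48 h vehicle rats, all 7 alpha subunit genes were higher with nevirapine, from 0.54 for Psma7 to 0.88 for Psma2, as were all 6 ATPase genes, from 0.45 for Psmc1 to 0.82 for Psmc4. Of the beta ring 5 of 7 were higher and of the 11 other cap subunits 10, all but Psmd3 (0.14). With the combination all 7 beta subunit genes were higher, from 0.48 for Psmb1 to 0.99 for Psmb10, as were the 6 ATPases and the 11 other cap subunits. The genes not called there were Psma3 (0.00 ± 0.20) and the chaperone gene Psmd10 (0.24 ± 0.10). Psma1 had the largest alpha ring change, 1.17 ± 0.14 (adjusted p = 3.92e-07). Without rat70 of the combination the calls of Psmb4, Psmb7, Psmb10, Psmd3, Psmd5, Psmd7, Psmd11 and Psmd12 were lost.

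The other lists at 48 h were set against the same vehicle rats, and differences between treatments in them were not tested. Of the 8 TRiC genes 5 were higher with nevirapine (median 0.42), 5 with the combination (median 0.52) and 8 with galactosamine (median 0.65). For these genes too the 48 h vehicle rats were low: their medians from the mean of the 15 vehicle rats were -0.41, -0.46 and -0.40, against -0.09 to 0.38 in the other vehicle rats. The nevirapine rats at 48 h stood at -0.08, 0.00 and 0.07, within the range of those other rats. Of the 10 shuttle and p97 genes, 6 were higher with nevirapine, 7 with the combination and 1 with galactosamine. All 8 macrophage markers were higher with the combination (median 1.55) and with galactosamine (median 1.82) and none with nevirapine (median -0.05). Their part in the proteasome values was not tested.

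Psmd14 shows the size of this shift. Nevirapine rats at 48 h read 9.70, 9.96 and 9.87, which is 1.42 ± 0.19 above their own vehicle rats (8.37, 8.56 and 8.32) and within the range of the other vehicle rats (9.08 to 9.91) save for 1 rat. Psmb3 read 10.76, 10.97 and 10.92 in the nevirapine rats at 48 h, 1.10 ± 0.16 above its own vehicle rats at 9.81, 9.95 and 9.58. In the other vehicle rats it read 10.16 to 10.83. The GAPDH difference was 0.86, 0.01 and 0.10 in these nevirapine rats, 0.13 and 0.14 with galactosamine and 0.29 to 0.35 with the combination, against 0.48 to 0.74 in the vehicle rats. With that difference as a covariate, 28, 29 and 9 genes were called for nevirapine, the combination and galactosamine, beside 14.6%, 11.7% and 33.3% of all genes. Without rat27 of galactosamine the median change at 48 h was 0.35, and without rat26 it was 0.42. Only 1 galactosamine rat is then left, so no count is given.

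The same dependence holds for the change of an effect from 24 h to 48 h. For galactosamine it was called higher in 8 and lower in 3 of the 34 genes, beside 19.3% and 17.2% of all genes, and for the combination higher in 4 and lower in 1, beside 7.3% and 7.33%. In either direction 36.4% and 14.6% of all genes were called, so that the shares of the members were near the background for both treatments. Psmd7 was lower at 48 h than at 24 h in both, by this measure -0.61 with galactosamine and -0.40 with the combination. With the 24 h vehicle rats at both times, 3 were higher and 10 lower for galactosamine and none higher and 7 lower for the combination. Of all genes 45.2% and 28.5% were called with that control, so that the members' shares were not above the background. With the 48 h vehicle rats, the 5 calls for the combination became 1 without rat79, 2 without rat5, rat12 or rat70, 3 without rat10, rat11, rat69 or rat71, 8 without rat67 and 10 without rat72. Between 9.9% and 17.1% of all genes were called in these settings. The lower value of Psma3 with galactosamine (-0.87) was -0.53 and not called without rat23.

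**Figure D4:**
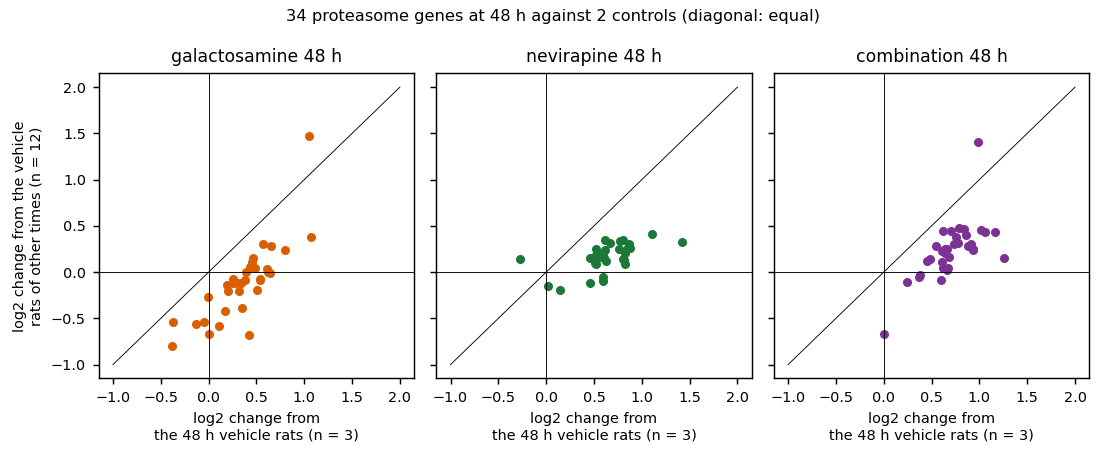
Log2 change of the 34 genes at 48 h from the 3 vehicle rats of 48 h (horizontal axis) and from the 12 vehicle rats of other times (vertical axis), for the 3 treatments, with equal values on the diagonal. In each panel every gene but Psmb10 lies below the diagonal, with medians of 0.61 and 0.18 for nevirapine, 0.67 and 0.25 for the combination and 0.38 and -0.10 for galactosamine.

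The difference between the combination and galactosamine at 48 h uses no vehicle rat. It was higher in 14 of the 34 genes and lower in none (median 0.34), beside 12.1% of all genes higher. Psmb7 had the largest difference (0.98 ± 0.20), then Psmd14 (0.83 ± 0.21), Psma1 (0.82 ± 0.16), Psmd11 (0.77 ± 0.13) and Psmc3 (0.76 ± 0.14). For Psmd11 the other bright probe set did not fall with galactosamine at this time, as given below. Psma1 read 10.95, 10.63 and 10.35 in the combination and 9.81 and 9.84 with galactosamine, without overlap. Only 2 rats stand behind galactosamine at this time. Without rat26 the median was 0.33. With only these groups in the fit 5 genes were called, beside 12.5% of all genes. Without rat70 of the combination the median was 0.18, with 10 genes called, beside 32.1%.

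Psmb10 stood apart from the other members. It rose by 1.28 at 24 h of galactosamine and already at 3 h of the combination, where its rats read 9.10, 8.87 and 8.44 against 7.50, 7.23 and 7.83 in vehicle rats. At 24 h of the combination they read 9.52, 8.85 and 9.40 (change 1.50 ± 0.26, 2.83-fold). With nevirapine alone its changes were -0.15, 0.07, -0.28 and -0.47 at 3 h, 24 h, 48 h and 15 d, none called. Psmb8 and Psmb9, the other immunoproteasome genes, rose by 1.60 and 1.82 at 24 h of galactosamine and by 1.33 and 1.49 at 24 h of the combination. At 3 h of the combination, 4 of 4 pan-leukocyte markers (summed signal 9.79 to 10.04 against 7.93 to 8.53) and 8 of 8 macrophage markers rose too. At 48 h Psmb10 was higher with galactosamine (1.05) and with the combination (0.99). The pan-leukocyte sums there were 9.78 to 9.79 and 8.55 to 9.68, against 7.90 to 8.73 in vehicle rats. In other groups the leukocyte sum was above that of vehicle rats while Psmb10 was not called. At 3 h of galactosamine the pan-leukocyte sum was 9.13 to 9.22, with a Psmb10 change of 0.35, not called. At 8 d of the combination the sum was 9.02 to 9.63, against 8.66 to 8.84 in 15 d vehicle rats. The Psmb10 change there was -0.45, not called. The part of leukocytes in the Psmb10 values was not tested.

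The other early groups showed few calls. At 3 h of nevirapine, Psmd12 rose (0.53 ± 0.16) and Psmb7 fell (by 0.53), beside 7.59% of all genes higher and 7.48% lower. Psmd12 read 8.54, 9.36 and 9.41 there, and rat31, the first of these, had the lowest median over the 34 genes (-0.31 against 0.23 and 0.19). Without rat31, 6 genes rose and none fell, beside 12.7% of all genes called in either direction. Without rat3 or rat33 none was called, beside 11.3% and 11.6%. Leaving out rat2 or rat32 left 1, beside 9.24% and 9.52%. At 3 h of the combination 3 genes rose (Psmb10, Psmd9 and Psmd10) and 3 fell (Psmb7, Psmd3 and Psmd7), beside 15.2% of all genes higher and 17.4% lower. Without rat1 of vehicle or rat61 of the combination 3 of the 6 were called, beside 25.2% and 28.8% of all genes. The falls of Psmb7, Psmd3 and Psmd7 were the calls lost.

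After 15 d of nevirapine, 6 of the 34 genes rose and none fell (median 0.19, and 0.11 without rat15 of vehicle), beside 5.13% of all genes higher. Without the dimmest 40% of genes 8 rose, beside 24.4% of the genes kept that were called in either direction. Psmc6 led with 10.34, 10.60 and 10.44 against 9.83, 9.93 and 9.71 in vehicle rats (change 0.64 ± 0.12, adjusted p = 0.000392). Psmd5 (0.58 ± 0.18), Psmd14 (0.55 ± 0.19), Psmd12 (0.54 ± 0.16), Psma1 (0.47 ± 0.14) and Psmd11 (0.40 ± 0.12) followed. Usp14 (0.76 ± 0.20) and Ubqln2 (0.83 ± 0.12), a ubiquitin shuttle gene, rose too, and Nfe2l1 rose by 0.40 ± 0.14 (adjusted p = 0.0468). Of 40 ribosomal protein genes none rose and 13 fell, beside 13.9% of all genes called in either direction. Leaving out single rats left 1 to 6 genes called, beside 8.07% to 10.4% of all genes. It left 1 without rat15 of vehicle or rat44 of nevirapine, 2 without rat45 and 3 without rat13. With all 15 vehicle rats as the control, 17 genes were called, beside 19.4% of all genes. That control holds the low 48 h vehicle rats, with medians over the 34 genes of -0.42 to -0.34. The 15 d vehicle rats stood at 0.05 to 0.26.

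At 8 d of the combination, the time of fibrosis, 6 of the 34 genes were higher than in vehicle rats of 15 d and none lower (median 0.15, and 0.09 without rat15 of vehicle), beside 13.1% of all genes higher. These rats had been dosed for 15 d, hence the control. Without the dimmest 40% of genes 6 were higher, beside 29.9% of the genes kept that were called in either direction. Psmc6 again led, with 10.43, 10.35 and 10.40 (change 0.57 ± 0.12), then Psmd14 (0.53 ± 0.19), Psmd5 (0.49 ± 0.18), Psmd13 (0.47 ± 0.14), Psmd12 (0.43 ± 0.16) and Psma1 (0.38 ± 0.14). The call of Psmc6 in particular turns on the control: its 8 d vehicle rats read 10.39, 10.23 and 10.18. With those as control, none of the 34 was called, beside 12.4% of all genes. With the 15 d vehicle rats as control, leaving out single rats left 1 to 4 called, beside 17% to 22.2% of all genes. It left 1 without rat15 or rat84, 2 without rat13, rat73 or rat87 and 4 without rat14.

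The combination at 8 d and nevirapine at 15 d, which had the same oral dosing, differed in none of the 34 genes (limma, median -0.04), with 1 at an unadjusted p under 0.05, beside 12.4% of all genes called. Galactosamine alone at 8 d against its vehicle rats gave no called member either (median 0.01), with 1 at an unadjusted p under 0.05, beside 0.0352% of all genes. The effect of the combination at 8 d minus that of galactosamine at 8 d, each on its own vehicle rats, was called for 1 gene, Psmc6 (0.62), beside 5.87% of all genes higher. It was 0.56 and not called without rat15 of vehicle or rat100. In the test of interaction at 8 d no member was called, with 1 at an unadjusted p under 0.05, beside 2.82% of all genes. These results do not show that the values were alike. For Psmd14 the difference between the combination at 8 d and nevirapine at 15 d was -0.02 ± 0.19.

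**Figure D5:**
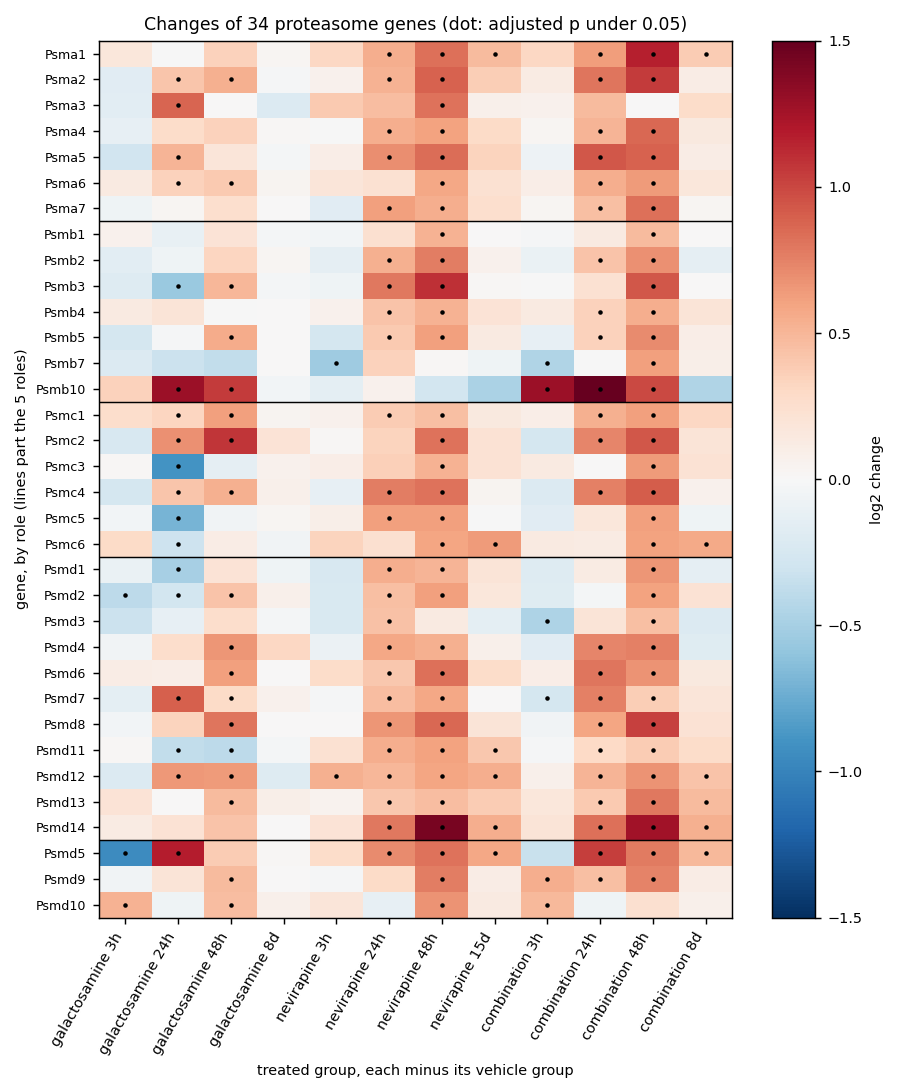
Log2 change of each of the 34 genes (rows, with lines between the 5 roles) in the 12 comparisons with vehicle (columns), from blue (lower) to red (higher), with a dot at an adjusted p under 0.05. The columns of nevirapine at 24 h and 48 h and of the combination at 24 h and 48 h hold 24, 31, 23 and 32 dots, all higher, and the 48 h columns rest on the low 48 h vehicle rats.

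Of the 34 genes, 7 were measured by more than 1 probe set. The fall of Psmc6 at 24 h of galactosamine was called with all 3 of its probe sets (-0.31, -0.55 and -0.51), and the rise of Psmd7 with both (0.90 and 0.58). For Psmd11 they differed: its second probe set, as bright as the first (9.731 and 9.733 on average), changed by 0.20 at 24 h of galactosamine, where the first fell by 0.37, while at 24 h of nevirapine the changes were 0.50 and 0.54. At 48 h of galactosamine they changed by 0.08 and -0.39, and with the mean of all probe sets of each gene no member was lower. The falls of Psmd11 with galactosamine were thus seen with 1 of these bright probe sets and not with the other. The further probe sets of Psmb5, Psmc4 and Psmd9 were dim (3.628 to 4.914 on average) and none of them was called higher with nevirapine at 24 h.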

How the data were processed

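Liver RNA of 50 rats was hybridised to Affymetrix whole-genome rat arrays, 1 array per rat. The authors deposited 1 table of log2 signals for 31099 probe sets, made with RMA per the submitters' processing notes, which also name limma; versions are not given in the sources used here. RMA sets all arrays to 1 distribution, so a change shared by most genes would not show. Probe sets with 1 symbol (20826; 436 carry several and 9831 have no entry in GEO's platform annotation) gave 14217 genes, each taken from its probe set with the highest mean over all arrays.

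Limma 3.58.1 (R 4.3.3; lmFit, eBayes) was fitted with 1 mean for each of 17 groups, and p-values were adjusted by Benjamini-Hochberg over 14217 genes in each of 21 comparisons. Rats are not paired. Replicates are separate rats. The p-values set each difference against the spread between rats within groups, estimated per gene over all 17 groups and moderated across genes. The number of arrays limits the precision. The scripts were tested on simulated data; tables used Python 3.11.15 with pandas 2.3.3 and numpy 2.4.6. Promoter windows came from RefSeq (GRCr8).

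The members and gene lists were chosen with earlier results of these data known. Named genes were to be the called members with the largest changes, the extremes of each role and up to 4 genes of each other list; further genes were chosen after their values were seen. Alternatives covered the groups fitted, the prior, a filter on dim genes, the probe set rule, cyclic loess, array weights, a GAPDH covariate, the control rats and leaving out single rats. The controls in place of the 48 h vehicle rats, other than all 15, were chosen after seeing the data.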

Additional observations from a re-analysis of the deposited data

Results flagged for a closer look

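The change of the galactosamine effect from 24 h to 48 h, tested in the limma fit as the effect at 48 h minus that at 24 h, was called for 11 of the 34 genes, beside 19.3% of all genes higher and 17.2% lower. It was 1.06 for Psmb3, 0.77 for Psmc3, 0.70 for Psmd1, 0.70 for Psmd2, 0.65 for Psmc5, 0.58 for Psmb5, 0.52 for Psmd6 and 0.52 for Psmd10. It was -0.87 for Psma3, -0.81 for Psmd5 and -0.61 for Psmd7. Of all genes 36.4% were called in either direction, so that the share of the members was near the background. With the 24 h vehicle rats in place of those of 48 h, a control chosen after seeing the data, the calls of Psma3 (-1.28), Psmd5 (-1.08), Psmd7 (-0.83), Psmb3 (0.50), Psmc3 (0.41) and Psmd10 (0.30) were kept. With the 12 vehicle rats of other times the call of Psmd10 (0.30, adjusted p = 0.0577) was lost too, and those of the other 5 were kept. Those of Psmb5 (0.25), Psmc5 (0.26), Psmd1 (0.29), Psmd2 (0.22) and Psmd6 (0.07) were lost.

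The same difference for the combination was called for 5 genes, beside 7.3% of all genes higher and 7.33% lower: 0.71 for Psmb3, 0.64 for Psmc3, 0.64 for Psmd2, 0.53 for Psmd1 and -0.40 for Psmd7. Here 14.6% of all genes were called in either direction, so that the share of the members was near the background. With the 24 h vehicle rats at both times, the call of Psmd7 (-0.62) was kept and those of Psmb3 (0.15), Psmc3 (0.27), Psmd1 (0.12) and Psmd2 (0.16) were lost.

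At 8 d, the effect of the combination on its 15 d vehicle rats minus that of galactosamine on its 8 d vehicle rats was called for Psmc6 alone (0.62), beside 5.87% of all genes higher. With the 8 d vehicle rats as the control of both, it was 0.18 (adjusted p = 0.368).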

How the results depend on the processing

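Counts are of the 34 genes called by limma. Percentages in brackets are the shares of all genes tested that were called in either direction with the same setting. With only the groups compared in the fit, the counts were 5 (35.1%) for galactosamine at 3 h and 11 (49.1%) for it at 24 h. They were 0 (9%) for nevirapine at 3 h and 12 (30.2%) for it at 15 d. For the combination they were 3 (15%) at 3 h and 14 (2.63%) at 48 h. For the combination minus galactosamine they were 10 (19.3%) at 24 h and 5 (12.5%) at 48 h. The difference of effects at 8 d gave 7 (22%) and the interaction at 8 d gave 1 (9.43%). The combination at 8 d minus nevirapine at 15 d gave 1 (16%), and the change of the combination effect gave 0 (5.84%). Without the dimmest 40% of genes galactosamine at 3 h gave 5 (47.8%). Cyclic loess gave 1 higher and 5 lower there (33.8%), and 1 (12.4%) for the combination at 8 d minus nevirapine at 15 d. It gave 18 higher and 4 lower for galactosamine at 24 h (57.2%), and 6 higher and 5 lower for the change of the galactosamine effect (37.6%). Array weights gave 8 (39.8%) for galactosamine at 3 h, 7 (23.3%) for nevirapine at 3 h and 16 (35.3%) for it at 15 d. They gave 6 (27.8%) for the difference of effects at 8 d and 1 (24.9%) for the combination minus nevirapine. For the interaction they gave 1 (14.6%), and for the change of the combination effect 2 (15.4%). With the GAPDH covariate, galactosamine at 48 h gave 9 (33.3%) and the vehicle groups 14 (19.9%). Without rat31, rat63 and rat70, galactosamine at 3 h gave 8 (35.9%), nevirapine at 3 h 7 (16.3%) and nevirapine at 15 d 11 (18.1%). The difference of effects at 8 d then gave 2 (15.4%) and the change of the galactosamine effect 17 (39.5%).

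All 15 vehicle rats include the low ones of 48 h. With them as the control the counts at 48 h were 8 (37.1%) for galactosamine, 4 (9.82%) for nevirapine and 17 (17.8%) for the combination. Galactosamine at 8 d gave 1 (5.05%), nevirapine at 3 h 0 (11.8%), nevirapine at 15 d 17 (19.4%) and the combination at 8 d 17 (37%). The difference of effects at 8 d gave 0 (9.38%) and the interaction 1 (3.57%). The change of the galactosamine effect gave 5 (42.2%) and that of the combination 3 (24%). With the 8 d vehicle rats the combination at 8 d gave 0 (12.4%). In place of the 48 h vehicle rats, those of 24 h gave 6 (33.9%), 8 (11.6%) and 9 (14.9%) for galactosamine, nevirapine and the combination. The 12 of other times gave 4 (9.09%) for nevirapine and 13 (18.9%) for the combination. The 4 other vehicle groups gave 3 (22.7%). For nevirapine at 24 h, all 15 vehicle rats gave 27 (10.1%).

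Direction turned for Psmc4 at 24 h of galactosamine with the mean of its probe sets (-0.02); its second probe set averages 3.63, under the control level. With all 15 vehicle rats it turned at 48 h for Psmb3 (-0.05) and Psmd7 (-0.04) with galactosamine and Psmc1 (-0.00) with nevirapine. With the 24 h vehicle rats it turned for Psmb3 (-0.06), Psmc4 (-0.01) and Psmd2 (-0.05) with galactosamine, Psmc1 (-0.03) and Psmc6 (-0.04) with nevirapine and Psmc6 (-0.03) with the combination. With the 12 vehicle rats of other times it turned for Psma2 (-0.09), Psma6 (-0.00), Psmb3 (-0.19), Psmc4 (-0.08), Psmd12 (-0.01) and Psmd7 (-0.12) with galactosamine, Psmc1 (-0.12), Psmc6 (-0.10) and Psmd12 (-0.06) with nevirapine, and Psmc6 (-0.09), Psmd11 (-0.03) and Psmd7 (-0.05) with the combination. The cause was not tested.

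Leaving out single rats gave 3 to 4 (27.2% to 30.3%), 14 to 18 (53.2% to 57.4%) and 0 to 0 (0% to 0.471%) for galactosamine at 3 h, 24 h and 8 d. At 48 h it gave 14 to 18 (32.1% to 37.4%) without single vehicle rats. Without rat26 or rat27 of galactosamine, which leaves 1 rat, the medians were 0.42 and 0.35. For nevirapine at 3 h, 24 h, 48 h and 15 d the counts were 0 to 6 (9.24% to 12.7%), 10 to 23 (6.5% to 9.59%), 28 to 31 (9.56% to 14.7%) and 1 to 6 (8.07% to 10.4%). For the combination at 3 h, 24 h, 48 h and 8 d they were 3 to 7 (22.4% to 34.3%), 17 to 23 (31% to 34.9%), 24 to 33 (7.77% to 16.7%) and 1 to 4 (17% to 22.2%). For the combination minus galactosamine they were 2 to 3 (11.3% to 18.5%) and 10 to 20 (32% to 35.5%) at 3 h and 24 h. At 48 h they were 10 to 19 (22.4% to 32.1%) without single combination rats. Without rat26 or rat27 of galactosamine the medians there were 0.33 and 0.39. The other ranges were 0 to 1 (6.55% to 11.8%) for the difference of effects at 8 d, 0 to 0 (7.2% to 11.3%) for the combination minus nevirapine and 0 to 0 (0.753% to 3.52%) for the interaction. With rat26 and rat27 kept, they were 9 to 13 (33.5% to 36.1%) for the change of the galactosamine effect. They were 1 to 10 (9.9% to 17.1%) for the change of the combination effect and 22 to 27 (21.8% to 29.1%) for the vehicle groups. Of 245 single gene results 65 kept direction and call in every setting. No paired analysis was possible because each rat number occurs once.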
